A study of Mus musculus with 6 samples.

Results

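The 42 DNA replication genes described here were taken by gene symbol from a fixed list that covers origin licensing, the replicative helicase, the polymerases, the supply of nucleotides and entry into S phase. All 42 symbols were found among the 24452 in each file. The libraries came from small intestine of C57BL/6 mice at postnatal day 14, a suckling age. There were 3 libraries labelled Erk1/2 -/- (a loss of MAP kinases, called labelled knockout here) and 3 labelled wild type. The labels name no treatment, and no promoter or cell type for the deletion. The series title places the comparison in the part that these kinases play in the gut after birth . The labels describe triplicates and do not say that each library came from a separate animal, so a p-value here reflects only how the 6 libraries vary.

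A cell that is about to copy its DNA first loads the ring of MCM2 to MCM7 on origins, with the help of the origin recognition complex, CDC6 and CDT1. In S phase CDC45 and the GINS complex join the ring to make the working helicase, and primase, the polymerases, the sliding clamp PCNA and its loader follow. Most of these genes are transcribed late in G1 under the control of E2F factors. Cyclin-dependent kinases, among them that of cyclin E, release these factors from the retinoblastoma protein. In the small intestine this program belongs mainly to the dividing cells of the crypts, while villus cells do not divide. In whole tissue, more dividing cells and more transcript per dividing cell cannot be told apart.

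The values are normalised counts, meaning reads per gene divided by a factor for each library and rounded. They summed to 17153570, 14927201 and 14825845 in labelled knockout 1 to 3 and to 13746946, 13641468 and 14094100 in wild type 1 to 3, with an estimated 12546568 to 16301996 reads per library. Mapk3, which encodes the MAP kinase ERK1 and is named by the genotype label, had 3363, 2280 and 2734 normalised counts in labelled knockout 1 to 3, against 3142, 2788 and 2004 in wild type 1 to 3. The groups overlapped, at a log2 fold change of 0.09 ± 0.22 (SE, limma adjusted p = 0.819), with no lower level under the knockout label. The values are totals over the whole gene and hold nothing on single exons. Labelled knockout 1 and wild type 3 stood apart in gut segment markers. A score of proximal minus ileal genes was 1.22, 5.43 and 5.83 in labelled knockout 1 to 3, against 5.27, 4.51 and 0.904 in wild type 1 to 3.

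Of the 42 replication genes, 7 were called higher in the labelled knockout libraries and none lower at a limma adjusted p under 0.05, adjusted over all 14686 genes tested. The 7 were Rrm2, E2f2, Mcm10, Ccne1, Gins2, Tk1 and Fen1, with log2 fold changes between 0.61 and 1.08. That is 16.7% of the members, where 4.85% of all genes tested were called higher, 3.94% lower and 8.79% in either direction. None of the 4 members with negative fold changes had an unadjusted p under 0.05, and limma-voom on estimated reads also called 7 higher and 0 lower. The fold change was positive for 38 members, for 34 with upper-quartile scaling and for 31 with scaling by library totals. The median log2 fold change of the 42 was 0.37, against -0.013 over all genes tested. Library totals moved the median of all genes to -0.185 and that of the members to 0.20, so that the members lay 0.385 above all genes there and 0.386 with the deposited scaling.

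The groups did not overlap for 21 of the 42, each time with all labelled knockout values above all wild type values, where 19.8% of all genes tested had this order. All 42 reached a value of 10 in each of the 6 libraries, so none entered the test through the group where it was high. The calls depended on which libraries were in the fit. Without labelled knockout 3, wild type 1 or wild type 2, no member was called. Without labelled knockout 2 the only call was Rrm2, and without wild type 3 the only call was E2f2. Without labelled knockout 1 there were 11 calls, and without both labelled knockout 1 and wild type 3 there were 12, among them all 7. Scaling by library totals left no call, with adjusted p between 0.0552 and 0.0773 for the 7. The log2 fold changes of the 7 moved less, from 0.44 for Fen1 with library totals to 1.25 for Rrm2 without labelled knockout 1. In simulated data with few changed genes, 0 of 67 genes with a true 1.5-fold change were called. A missing call therefore does not show that a member is unchanged.

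**Figure D1:**
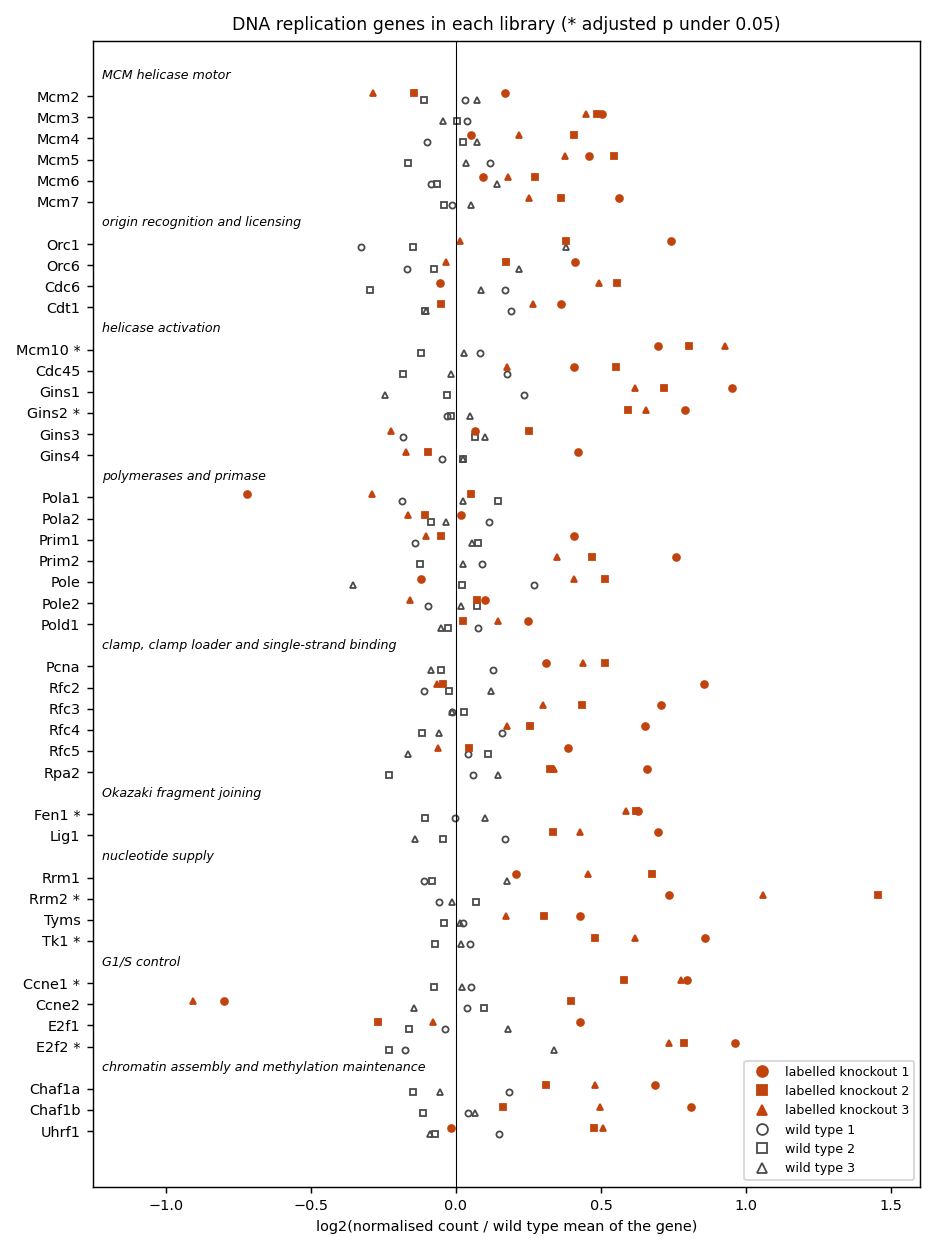
Normalised count of each of the 42 genes in each library, as log2 of its ratio to the gene's wild type mean. Filled symbols are the 3 labelled knockout libraries and open symbols the 3 wild type libraries. Asterisks mark the 7 genes called higher, and in 21 of the 42 rows all filled symbols lie to the right of all open ones.

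The origin licensing genes showed no call. Orc1, an ATPase of the origin recognition complex, had 63, 49 and 38 normalised counts in labelled knockout 1 to 3, against 30, 34 and 49 in wild type 1 to 3. Cdt1, which brings the MCM ring to origins, had 781, 587 and 732, against 693, 565 and 567 in the same order. Both overlapped between the groups. Orc6, the smallest subunit of the complex, and Cdc6, the ATPase that loads MCM, overlapped as well, at log2 fold changes of 0.19 ± 0.19 and 0.34 ± 0.24 (SE). None of the 4 had an unadjusted p under 0.05, and their fold changes ran from 0.19 to 0.40 on the log2 scale.

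None of the 6 subunits of the MCM ring was called, and their log2 fold changes ran from -0.08 to 0.48. Mcm3 had 688, 680 and 663 normalised counts in labelled knockout 1 to 3, against 499, 487 and 471 in wild type 1 to 3. Its log2 fold change was 0.48 ± 0.12 and missed the threshold (limma adjusted p = 0.0527). With trimmed-mean scaling, with a filter at 50, with the segment score as a covariate, without labelled knockout 1 and without both labelled knockout 1 and wild type 3 it was called. Mcm5 had 919, 975 and 868, against 725, 597 and 685, and Mcm7 had 1131, 983 and 911, against 758, 744 and 794. These 3 subunits had groups apart and unadjusted p under 0.05, and none was called. Mcm2 had 1156, 932 and 845 in labelled knockout 1 to 3, against 1052, 954 and 1082 in wild type 1 to 3. Mcm2 overlapped between the groups at a log2 fold change of -0.08 ± 0.16, which is 0.0141 without labelled knockout 3. Mcm4 and Mcm6 overlapped too, at 0.23 ± 0.15 and 0.18 ± 0.13. The ratio of a pair of genes within a library does not depend on scaling. The pairs here and below were chosen after their values were seen, and Mcm2 was the subunit with a negative fold change. Groups lying apart in a ratio are thus no further support for a difference. The Mcm3 to Mcm2 ratio was 0.595, 0.730 and 0.785 in labelled knockout 1 to 3, against 0.474, 0.510 and 0.435 in wild type 1 to 3. The Mcm7 to Mcm2 ratio averaged 1.04 ± 0.0522 in labelled knockout libraries and 0.745 ± 0.0311 in wild type libraries (SD, n = 3 each). Neither ratio overlapped between the groups, nor did that of Mcm5 to Mcm2, which averaged 0.956 ± 0.140 against 0.649 ± 0.0347 (SD, n = 3 each).

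Genes that turn the loaded ring into a helicase included 2 of the 7 calls. Mcm10, a factor needed to activate the helicase, had 370, 398 and 434 normalised counts in labelled knockout 1 to 3, against 242, 210 and 233 in wild type 1 to 3. It lies on chromosome 2 from 4989714 to 5012791 (minus strand, GRCm38) and its log2 fold change was 0.81 ± 0.14, with the lowest p of the 42 (limma adjusted p = 0.0244). The groups lay far apart beside the spread within each. Gins2 (chromosome 8, 120578633 to 120589304, minus strand), a subunit of the GINS complex, had 182, 159 and 166, against 103, 104 and 109 (log2 fold change 0.68 ± 0.15, limma adjusted p = 0.0403). The annotation has 2758 exon bases of Gins2 in common with Gse1 on the opposite strand, and the strand setting of the counting is not given in the sources used here. Gse1 itself overlapped between the groups, at a log2 fold change of -0.17 ± 0.20. Any part of Gse1 reads in the Gins2 values was not tested. Gins1, another subunit, had 87, 74 and 69, against 53, 44 and 38, with the groups apart and no call (0.76 ± 0.21, limma adjusted p = 0.0672). Gins3 and Gins4, which complete the complex, had fold changes near 0 on the log2 scale, at 0.037 ± 0.221 and 0.051 ± 0.190, both negative with library totals and with upper-quartile scaling. Cdc45, the partner of GINS and MCM, was at 0.38 ± 0.17 with its groups overlapping. The Gins2 to Gins3 ratio averaged 3.98 ± 0.73 in labelled knockout libraries and 2.52 ± 0.23 in wild type libraries (SD, n = 3 each) and did not overlap.

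**Figure D2:**
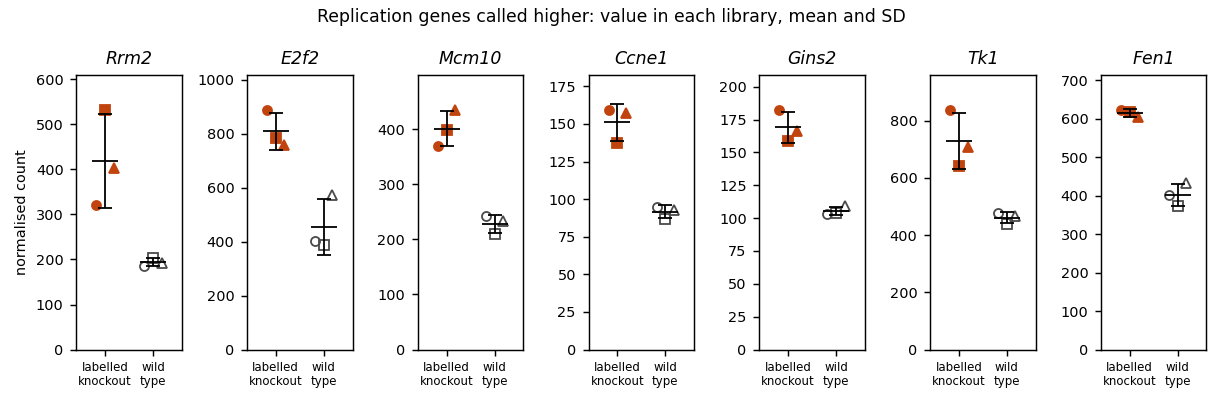
Normalised counts of the 7 genes called higher, with labelled knockout libraries (filled) left of wild type libraries (open). Circles, squares and triangles are libraries 1, 2 and 3, and the bars give the mean and SD. No gene overlaps between the groups, and Rrm2 has the widest labelled knockout spread of the 7, from 322 to 531.

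The polymerase and primase genes had the lowest median of the roles, a log2 fold change of 0.086 over 7 genes, and no call. Pola2, the regulatory B subunit of polymerase alpha, had 483, 444 and 426 normalised counts in labelled knockout 1 to 3, against 517, 450 and 466 in wild type 1 to 3. Pold1, the catalytic subunit of the lagging strand polymerase delta, had 780, 668 and 727, against 693, 644 and 634. Pola1, the catalytic subunit of polymerase alpha, had 89, 152 and 120, against 129, 162 and 149, the most negative fold change of the role at -0.31 ± 0.23. The groups overlapped for all 3. Pole, the catalytic subunit of the leading strand polymerase epsilon, its partner Pole2 and the small primase subunit Prim1 also overlapped, at 0.29 ± 0.24, 0.006 ± 0.189 and 0.086 ± 0.193. The single gene of the 7 with groups apart and an unadjusted p under 0.05 was Prim2, the large primase subunit, at 0.52 ± 0.18 (limma adjusted p = 0.109).

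None of the 6 genes of the clamp, its loader and the single-strand binding protein was called. Pcna, which encodes the sliding clamp that tethers polymerases to DNA, had 1945, 2239 and 2127 normalised counts in labelled knockout 1 to 3, against 1715, 1516 and 1477 in wild type 1 to 3. These groups did not overlap (log2 fold change 0.42 ± 0.13, limma adjusted p = 0.0887). Rfc3, a small subunit of the clamp loader, was at 0.48 ± 0.15, Rfc4 at 0.36 ± 0.20 and Rpa2, a subunit of replication protein A, at 0.45 ± 0.17, all with groups apart. Rfc2, another loader subunit, had 967, 519 and 511, against 496, 526 and 582, so that labelled knockout 1 alone stood above the others. Without that library the log2 fold change of Rfc2 was -0.051. Rfc5 overlapped at 0.13 ± 0.17. In all, 3 of these 6 genes (Pcna, Rfc3 and Rpa2) had an unadjusted p under 0.05.

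Both genes that finish lagging strand fragments had groups apart, and Fen1 was called. Fen1, the nuclease that trims the flap between fragments (chromosome 19, 10199132 to 10204169, minus strand), had 622, 619 and 604 normalised counts in labelled knockout 1 to 3, against 402, 374 and 432 in wild type 1 to 3. The ratio of its highest to its lowest labelled knockout value, 1.03, was the smallest of the 42, and its log2 fold change was 0.61 ± 0.13 (limma adjusted p = 0.0358). The annotation places 2039 of its exon bases under antisense or opposite-strand genes. Lig1, the ligase that seals the fragments, had 913, 710 and 757, against 633, 546 and 511, and missed the threshold at 0.49 ± 0.16 (limma adjusted p = 0.0930).

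All 4 genes of nucleotide supply had their groups apart, and 2 were called. Rrm2, the limiting small subunit of ribonucleotide reductase (chromosome 12, 24708241 to 24714146, plus strand), had 322, 531 and 403 normalised counts in labelled knockout 1 to 3, against 186, 203 and 192 in wild type 1 to 3. Its fold change, 1.08 ± 0.20 in log2, was the largest of the 42 (limma adjusted p = 0.0284). The labelled knockout libraries differed among themselves up to 1.65-fold while the wild type libraries stayed within 1.09-fold. Rrm1, the large subunit, had 562, 778 and 667, against 451, 460 and 550 (0.45 ± 0.17, limma adjusted p = 0.131). The Rrm2 to Rrm1 ratio was 0.573, 0.683 and 0.604 in labelled knockout 1 to 3, against 0.412, 0.441 and 0.349 in wild type 1 to 3, with no overlap. Tk1, the thymidine kinase of dividing cells (chromosome 11, 117815526 to 117826092, minus strand), had 836, 642 and 707, against 477, 439 and 467 (log2 fold change 0.65 ± 0.15, limma adjusted p = 0.0435). Tyms, thymidylate synthase, was at 0.30 ± 0.13 without a call (limma adjusted p = 0.174), and the pseudogene Tyms-ps was listed at 0 in all 6 libraries.

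Of the 4 G1/S control genes, Ccne1 and E2f2 were called higher. Ccne1, a cyclin E gene (chromosome 7, 38097984 to 38107534, minus strand), had 159, 137 and 157 normalised counts in labelled knockout 1 to 3, against 95, 87 and 93 in wild type 1 to 3. Its log2 fold change was 0.71 ± 0.15 (limma adjusted p = 0.0399), and its groups lay apart. Ccne2, the other cyclin E gene, was the lowest member, with 14, 32 and 13 against 25, 26 and 22. It had the most negative fold change of the 42, -0.41 ± 0.38, and its groups overlapped. E2f2, an activating E2F factor (chromosome 4, 136172394 to 136196057, plus strand), had 887, 785 and 758, against 403, 388 and 575 (log2 fold change 0.85 ± 0.19, limma adjusted p = 0.0410). E2f1, a factor of the same class, had 253, 156 and 178, against 183, 168 and 213, which overlapped, at 0.034 ± 0.218, negative with library totals, with upper-quartile scaling, without labelled knockout 1, without wild type 2 and without both labelled knockout 1 and wild type 3. The E2f2 to E2f1 ratio was 3.51, 5.03 and 4.26 in labelled knockout 1 to 3, against 2.20, 2.31 and 2.70 in wild type 1 to 3. The Ccne1 to Ccne2 ratio was 11.4, 4.28 and 12.1, against 3.8, 3.35 and 4.23, and labelled knockout 2 barely cleared the wild type values. All 9 ratios computed had the groups apart. The gene pairs were chosen after their values were seen, so their separation is no independent support. Each gave an exact two-sided permutation p of 0.1 (0.1 after adjustment over the 9), the smallest that 3 against 3 libraries allow.

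**Figure D3:**
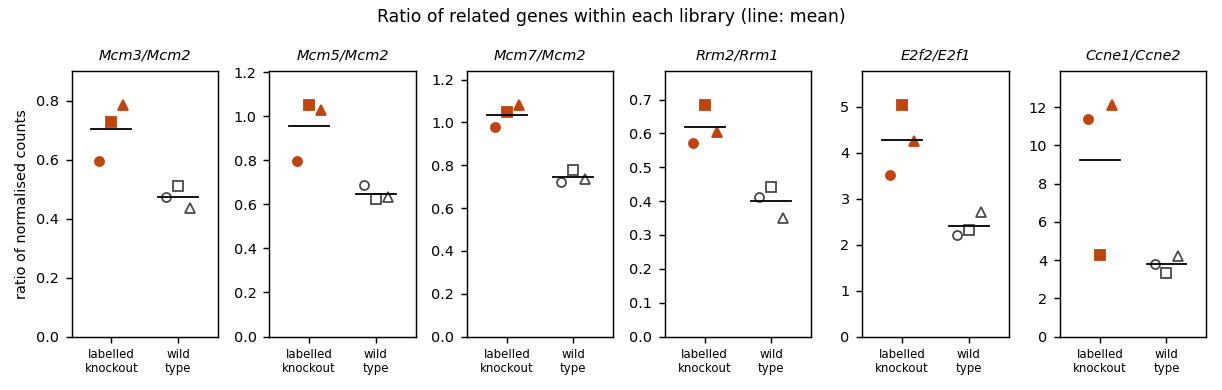
Ratio of normalised counts of a pair of related genes within each library, for 6 pairs, with labelled knockout libraries (filled) left of wild type libraries (open). Circles, squares and triangles are libraries 1, 2 and 3 and lines are means. The groups lie apart in every panel, narrowly for Ccne1/Ccne2, where labelled knockout 2 is at 4.28 and wild type 3 at 4.23.

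The chromatin genes of the replication fork gave no call. Uhrf1, which guides the maintenance DNA methyltransferase to new DNA, had 837, 1176 and 1203 normalised counts in labelled knockout 1 to 3, against 937, 805 and 796 in wild type 1 to 3. The groups overlapped because labelled knockout 1 was low, and without that library Uhrf1 was called. Chaf1a and Chaf1b, the large and middle subunits of the histone chaperone CAF-1, were at 0.50 ± 0.16 and 0.49 ± 0.20 with groups apart (limma adjusted p = 0.0970 and 0.155). Chaf1a has 4648 annotated exon bases in common with Ubxn6 on the opposite strand, and Ubxn6 was highest in the same library as Chaf1a, with 1599 normalised counts in labelled knockout 1. In all, 15 of the 42 genes have exon bases in common with another annotated gene.

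Promoters are shown because many replication genes are known to carry an E2F site there. RefSeq promoter windows (GRCm38.p6, 250 bases before and 50 after the start) were at hand for 34 of the 42 genes. The words TTTCCCGC, TTTCGCGC, TTTGCCGC and TTTGGCGC, which together are the classical E2F site, were searched on both strands, and so was CCAAT, the box bound by NF-Y. An E2F word stood in a window of 15 of the 34 genes (44.1%), against 4.36% of the 11134 genes tested that have a window and 2.26% of all 32851 windows. Among the genes called higher it stood in 1 of 6 (E2f2), and among the uncalled members in 14 of 28, a difference that was not tested. Of 18 mitosis genes with a window 1 had an E2F word and 15 had a CCAAT box, while 20 of the 34 replication genes and 42.2% of all genes tested with a window had the box. The windows below are those of 4 of the 5 uncalled members with several E2F words in a window, of E2f2, and of Rrm2 and Mcm10, called members with no such word. E2F words and CCAAT boxes are in capitals, each read on either strand, and in these windows no E2F word overlaps a CCAAT box, while in Mcm6 and in Mcm5 a pair of E2F words on opposite strands overlaps. The fifth such member, Mcm7, is not shown, and 1 of its E2F words does overlap a CCAAT box.
Mcm6, chr1:128359656-128359955, minus strand: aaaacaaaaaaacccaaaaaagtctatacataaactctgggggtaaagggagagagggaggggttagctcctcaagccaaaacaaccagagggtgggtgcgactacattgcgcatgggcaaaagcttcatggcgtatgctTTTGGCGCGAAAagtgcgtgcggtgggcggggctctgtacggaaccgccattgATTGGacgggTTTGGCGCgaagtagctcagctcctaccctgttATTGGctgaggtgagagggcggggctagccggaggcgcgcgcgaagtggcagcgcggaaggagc
Mcm5, chr8:75109259-75109558, plus strand: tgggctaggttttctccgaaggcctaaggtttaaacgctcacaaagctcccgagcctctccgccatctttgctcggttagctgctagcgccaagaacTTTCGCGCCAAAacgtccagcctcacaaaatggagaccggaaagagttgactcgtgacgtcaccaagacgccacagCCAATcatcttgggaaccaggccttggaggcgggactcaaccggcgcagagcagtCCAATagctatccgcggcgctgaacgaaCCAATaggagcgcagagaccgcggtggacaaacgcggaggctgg
Mcm3, chr1:20820263-20820562, minus strand: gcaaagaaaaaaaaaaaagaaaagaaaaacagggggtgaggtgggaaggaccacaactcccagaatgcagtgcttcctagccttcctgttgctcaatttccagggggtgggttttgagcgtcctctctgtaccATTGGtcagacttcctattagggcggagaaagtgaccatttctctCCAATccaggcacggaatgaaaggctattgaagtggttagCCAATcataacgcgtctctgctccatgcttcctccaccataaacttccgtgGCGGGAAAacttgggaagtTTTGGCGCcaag
Rfc3, chr5:151651159-151651458, minus strand: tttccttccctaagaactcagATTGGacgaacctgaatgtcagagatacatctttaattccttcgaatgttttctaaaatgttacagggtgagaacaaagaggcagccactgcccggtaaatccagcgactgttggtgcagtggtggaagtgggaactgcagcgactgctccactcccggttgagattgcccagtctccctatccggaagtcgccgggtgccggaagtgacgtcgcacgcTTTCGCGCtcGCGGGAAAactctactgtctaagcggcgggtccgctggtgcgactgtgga
E2f2, chr4:136172024-136172323, plus strand: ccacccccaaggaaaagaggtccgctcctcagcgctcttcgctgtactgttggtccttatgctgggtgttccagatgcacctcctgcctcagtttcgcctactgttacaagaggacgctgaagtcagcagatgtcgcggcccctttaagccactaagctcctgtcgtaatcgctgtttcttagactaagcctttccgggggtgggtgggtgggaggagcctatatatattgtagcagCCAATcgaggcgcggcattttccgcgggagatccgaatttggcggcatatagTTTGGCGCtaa
Rrm2, chr12:24708004-24708303, plus strand: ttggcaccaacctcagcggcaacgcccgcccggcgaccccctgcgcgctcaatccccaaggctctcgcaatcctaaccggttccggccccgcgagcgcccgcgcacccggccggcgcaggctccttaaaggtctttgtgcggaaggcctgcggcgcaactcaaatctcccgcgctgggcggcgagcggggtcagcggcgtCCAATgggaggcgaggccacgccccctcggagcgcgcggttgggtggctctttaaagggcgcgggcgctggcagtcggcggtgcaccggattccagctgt
Mcm10, chr2:5012742-5013041, minus strand: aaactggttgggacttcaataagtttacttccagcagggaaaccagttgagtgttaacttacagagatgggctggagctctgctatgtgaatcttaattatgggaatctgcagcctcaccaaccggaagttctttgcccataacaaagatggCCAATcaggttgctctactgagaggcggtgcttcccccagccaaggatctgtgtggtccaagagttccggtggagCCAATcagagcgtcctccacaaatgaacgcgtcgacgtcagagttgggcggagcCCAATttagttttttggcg

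Mcm6 and Mcm5 show a run of capitals in which a word on each strand interlocks, and Mcm3 and Rfc3 carry their words close to the start. Mcm10 has 3 CCAAT boxes and Rrm2 a single one. The Mcm10 window ends in tttggcg, all but the last letter of TTTGGCGC, so a word crossing its end would be missed. A match is a description of letters, and these counts say nothing of whether a factor binds.

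Levels per kilobase of transcript (normalised count over the length of the longest principal transcript in GENCODE) allow members to be compared with each other. Pcna was the most abundant, at 1390 per kb in labelled knockout libraries and 1030 per kb in wild type libraries. Tk1 followed, at 506 and 320 per kb, and Ccne2 was lowest, at 6.54 and 8.09 per kb. The 6 MCM subunits, which are present in equal numbers in the ring, spanned 2.64-fold in labelled knockout libraries and 2.74-fold in wild type libraries, with Mcm4 lowest in both. The GINS subunits, also equal in number in their complex, were spread far more, from 17.2 per kb for Gins3 to 175 for Gins4 in labelled knockout libraries and from 16.7 to 166 in wild type libraries. Rrm2 was at 191 and 88.3 per kb and Rrm1 at 167 and 122 per kb, so the order of the ribonucleotide reductase subunits differed between the groups by these means. Fen1 and Lig1 were nearly level with each other, at 259 and 250 per kb in labelled knockout libraries and 170 and 177 per kb in wild type libraries.

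**Figure D4:**
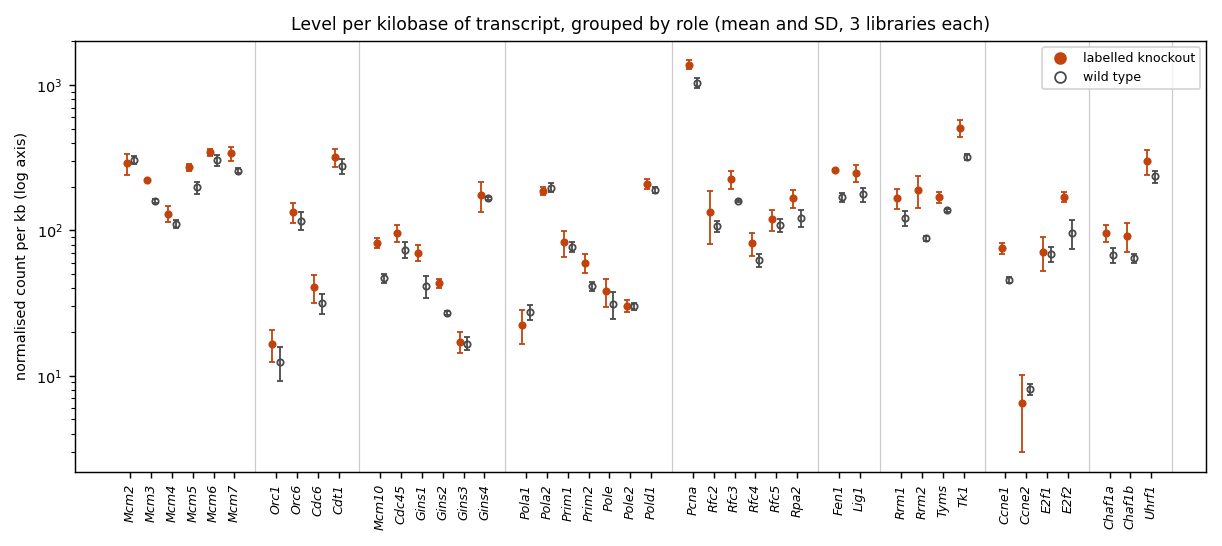
Mean normalised count per kilobase of transcript for each of the 42 genes on a log axis, with labelled knockout (filled) left of wild type (open) and SD bars over 3 libraries each. Vertical lines separate the roles. Pcna stands highest and Ccne2 lowest in both groups.

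The labelled knockout libraries did not carry the replication genes alike. Labelled knockout 1 had the highest value of all 6 libraries for 27 of the 42 genes, labelled knockout 2 for 11 and labelled knockout 3 for 2. Wild type 2 was the lowest of the 6 for 16 genes. The median ratio to the wild type mean was 1.35 in labelled knockout 1, 1.29 in labelled knockout 2 and 1.22 in labelled knockout 3, and 37, 35 and 30 of the 42 genes lay above that mean. Rrm1, Rrm2, Mcm4, Mcm5, Mcm6, Pcna and Cdc45 were among the genes highest in labelled knockout 2, and the clamp loader genes Rfc2, Rfc3, Rfc4 and Rfc5 were all highest in labelled knockout 1. The median ratio of the highest to the lowest library was 1.31 among labelled knockout libraries and 1.17 among wild type libraries.

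A list of 45 other replication genes holds the remaining subunits and factors of the same steps. Of these, 2 were called higher (4.44%, near the 4.85% of all genes tested) and none lower. Their median log2 fold change was 0.22. Dut, which removes dUTP, had 510, 496 and 482 normalised counts in labelled knockout 1 to 3, against 275, 299 and 347 in wild type 1 to 3 (0.70 ± 0.14, limma adjusted p = 0.0348). Gmnn, the inhibitor of CDT1, had 347, 261 and 294, against 170, 189 and 198 (0.69 ± 0.16, limma adjusted p = 0.0482). Both lay well clear of the wild type range. No gene of this list was called lower with limma-voom either, and Rrm2b, the ribonucleotide reductase subunit that p53 induces, had the most negative fold change at -0.69 ± 0.24 (limma adjusted p = 0.114). Dnmt1, the maintenance DNA methyltransferase and the gene of the list with the highest mean normalised count over the 6 libraries, had 1165, 1414 and 1553, against 1361, 1195 and 1212, which overlapped (0.13 ± 0.15). The call of both genes was lost without labelled knockout 2, labelled knockout 3 or any wild type library, and without labelled knockout 1 there were 6 calls.

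Mitosis genes, which follow replication in the cycle, had 7 of 22 called higher (31.8%, against 4.85% of all genes tested) and none lower. Their median log2 fold change was 0.48. Birc5, which encodes survivin, had 499, 476 and 419 normalised counts in labelled knockout 1 to 3, against 229, 229 and 238 in wild type 1 to 3 (1.00 ± 0.14, limma adjusted p = 0.0146). The other 6 were Ube2c, Ccnb2, Cenpa, Cdc20, Ccnb1 and Aurkb, with log2 fold changes of 0.90, 0.91, 0.71, 0.67, 0.75 and 0.61, and no value of theirs in a labelled knockout library fell within the wild type range. Mki67, the common marker of cycling cells, did not follow, with 1070, 2110 and 1578 against 1387, 1395 and 1358 (0.15 ± 0.24, limma adjusted p = 0.712). Its labelled knockout values lay on both sides of the wild type values. The summed replication genes were 245%, 193% and 200% of the summed mitosis genes in labelled knockout 1 to 3, against 240%, 223% and 231% in wild type 1 to 3, which overlapped. That the 42 genes and the mitosis genes differ in their response was not tested. Calls of mitosis genes were not counted with libraries left out. Over all genes, the number called higher ran from 26 without labelled knockout 3 to 1546 without labelled knockout 1.

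**Figure D5:**
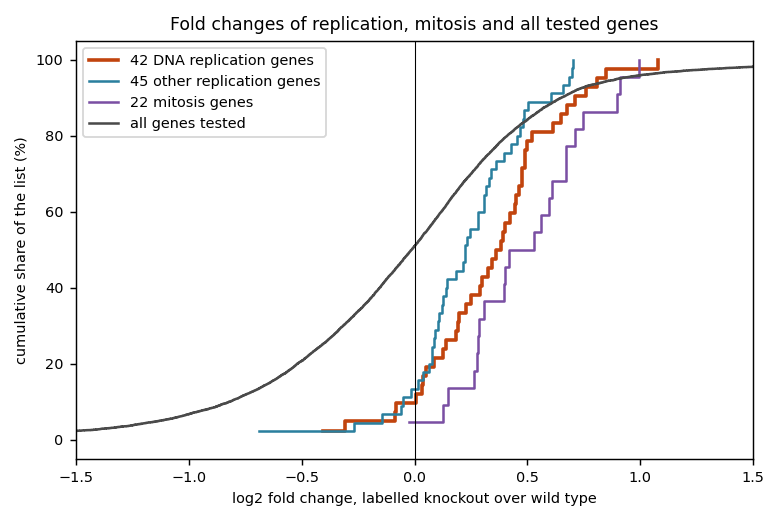
Cumulative share of genes by log2 fold change (labelled knockout over wild type) for the 42 replication genes, the 45 other replication genes, the 22 mitosis genes and all 14686 genes tested. The axis ends at -1.5 and 1.5. The medians are 0.37, 0.22, 0.48 and -0.013. The replication curves lie to the right of that of all genes over most of the range. Their largest values are 1.08 for the 42 genes and 0.70 for the 45.

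Among 27 tested regulators of the cycle, 1 was called higher and 1 lower. Of all genes tested, 4.85% were called higher and 3.94% lower. The median log2 fold change of the regulators was -0.022. Cdkn2b, which encodes the p15 inhibitor of CDK4 and CDK6, had 1603, 1420 and 1836 normalised counts in labelled knockout 1 to 3, against 723, 802 and 836 in wild type 1 to 3 (1.04 ± 0.15, limma adjusted p = 0.0172). E2f8, an E2F factor that represses its targets, had 355, 342 and 298, against 554, 619 and 607 (-0.84 ± 0.14, limma adjusted p = 0.0210). Both were apart from wild type in every library. Ccnd1, the cyclin D gene induced by growth factor signals, had 1307, 1152 and 934, against 680, 643 and 799, and missed the threshold (0.67 ± 0.17, limma adjusted p = 0.0574). The other D cyclin genes went the other way without a call. Ccnd2 had 742, 1478 and 1477, against 1720, 1539 and 1928, with groups apart (-0.55 ± 0.28, limma adjusted p = 0.236). Ccnd3 overlapped between the groups at -0.31 ± 0.20 (limma adjusted p = 0.329). Cdkn1a, the p21 inhibitor gene, was at 0.49 ± 0.14 (limma adjusted p = 0.0738). Cdkn1c, which encodes the p57 inhibitor and had the highest mean normalised count of the list, had 3694, 1509 and 794, against 3361, 4454 and 4681, with an overlap through labelled knockout 1 (-1.33 ± 0.51, limma adjusted p = 0.138). Cdk4, Cdk2 and Myc, positive regulators of G1, were at -0.022 ± 0.240, 0.018 ± 0.136 and 0.23 ± 0.18.

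Some markers of cell types were called as well, where 4.85% of all genes tested were called higher and 3.94% lower. Of 7 epithelial markers, 3 were called higher, Krt8, Krt19 and Cldn3, and their summed level was 130553 to 155739 in labelled knockout libraries and 69288 to 87869 in wild type libraries. The summed replication genes were 13.1%, 14.9% and 13.7% of that sum in labelled knockout 1 to 3, against 21.2%, 21.0% and 17.6% in wild type 1 to 3. Against Epcam alone, an epithelial adhesion gene, they were 63.7%, 65.2% and 65.0%, against 78.4%, 69.5% and 53.7%. The share of the keratin-rich sum was thus lower in all 3 labelled knockout libraries, and the share of Epcam overlapped between the groups. Crypt base stem cell genes had 1 of 8 called, Axin2, which was lower, with a median of -0.18 and sums of 6214 to 9608 and 7937 to 8684. Lgr5, the stem cell receptor, had 94, 165 and 140 normalised counts in labelled knockout 1 to 3, against 238, 192 and 215 in wild type 1 to 3, without a call (limma adjusted p = 0.0959). Of the 8 crypt base genes, 5 had negative and 3 positive fold changes. On the positive side, Prom1 was at 1.03 ± 0.34 with groups apart and no call (limma adjusted p = 0.101). Paneth cell genes had 2 of 6 called higher, with sums of 10410 to 15878 and 1460 to 7138. B cell genes had 6 of 7 called lower, with sums of 147 to 215 and 450 to 630. T cell, smooth muscle and fibroblast lists had no call, with medians of -0.17, -0.24 and -0.043. Myeloid genes had 2 called higher and 1 lower of 8, and villus enterocyte genes 1 lower of 9. The part of any of these cell types in the levels of the replication genes was not tested.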

How the data were processed

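Polyadenylated RNA of small intestine was sequenced in 6 libraries, assigned to 3 labelled knockout and 3 wild type samples by sample title. Per the submitters' processing notes, TopHat2 2.1.0, HTSeq 0.6.0, DESeq2 and the build mm10 were used. The deposited values carry the unit score: whole numbers per gene symbol that are not raw counts, since low whole numbers are missing or doubled at regular steps. They are called normalised counts, and the factors behind them were estimated from those steps to give reads per library. No value column was left unused. Because the values are not counts, limma 3.58.1 in R 4.3.3 was run with its trend option after adding 1 and taking log2, on the 14686 genes that reached 10 in 3 or more libraries. Genotype was the only term, with 4 residual and 2.99 prior degrees of freedom. Two-sided p-values were adjusted by Benjamini-Hochberg over every gene tested and called at 0.05. The procedure was run on simulated data in which few genes were changed. It called 0 of 67 genes with a true 1.5-fold change, 9 of 67 with a 2-fold and 54 of 66 with a 4-fold change. Of 14611 unchanged genes it called 4. Fold changes are on this scale and understate those of low genes. Errors of fold changes are SE. Since the values are not counts, no counting interval is given. Coordinates came by symbol from GENCODE vM21 (GRCm38). The labels name no pairing of libraries by replicate number. The members, lists and rules were chosen with earlier results of these data known. By the rule for named genes, called members, the 5 uncalled members of lowest p, the most negative one and the most abundant of each role are given per library, and other members were added after their values were seen. Of the other lists, called genes and an abundant uncalled gene are named in part. Gse1, Ubxn6, Rrm2b, Epcam, Lgr5, Prom1, Ccnd1, Ccnd2, Ccnd3, Cdkn1a, Cdk4, Cdk2 and Myc were named after their values were seen. Some genes are not reported here. Alternatives changed scaling, pseudocount, filter, prior, threshold, block, covariate and libraries, and limma-voom was added after seeing the data.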

Additional observations from a re-analysis of the deposited data

How the results depend on the processing

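Pseudocounts of 0.5 and 5, robust estimation, trimmed-mean scaling, a filter at 50 and limma-voom on estimated reads left 7 or 8 replication genes called, and 5 were called without the intensity trend. With library totals, upper quartiles, no filter, the replicate block, a threshold of 0.1 and the segment score as a covariate, 0, 4, 3, 0, 14 and 16 were called higher, and 12 without both labelled knockout 1 and wild type 3. Leaving out a single library gave 0 to 11. Of the 45 other replication genes, 0, 1, 1, 0, 6, 5 and 7 were called in the same order and 1 without the intensity trend, 1 was called lower with the segment score, and single libraries left out gave 0 to 6. The median log2 fold change of the members was 0.2 with library totals. Over all genes, 712 were called higher and 579 lower. The higher and lower counts were 414 and 983 with library totals, 55 and 9 with the replicate block, 2033 and 1729 without both libraries, 1517 and 1330 at the threshold of 0.1, and 2114 and 1799 with the segment score. Leaving out single libraries gave 26 to 1546 higher and 1 to 1452 lower.

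Signs of uncalled members near 0 turned. With library totals the log2 fold changes of Gins3, Gins4, Prim1, Pole2, Pold1, Rfc5 and E2f1 were -0.133, -0.123, -0.0864, -0.164, -0.0338, -0.0464 and -0.14. With upper quartiles those of Gins3, Gins4, Pole2 and E2f1 were -0.0176, -0.0047, -0.0481 and -0.0216. Without both labelled knockout 1 and wild type 3 those of Gins4, Prim1, Pole2, Rfc5 and E2f1 were -0.121, -0.0447, -0.0301, -0.0838 and -0.073. With single libraries left out, Mcm2 ran from -0.212 to 0.0141, Gins3 ran from -0.0705 to 0.161, Gins4 ran from -0.133 to 0.162, Prim1 ran from -0.0731 to 0.178, Pole2 ran from -0.0402 to 0.0864, Rfc2 ran from -0.0509 to 0.409, Rfc5 ran from -0.0035 to 0.22 and E2f1 ran from -0.166 to 0.181. The replicate numbers are shared by the groups, and the labels name no pairing. Deviations of same-numbered libraries from their group means correlated at -0.373, 0.302 and -0.161 for numbers 1, 2 and 3. With so few libraries these correlations cannot decide whether same-numbered libraries were handled together. The causes of these changes were not tested.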

Other observations

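The labelled knockout libraries ranked differently across the mitosis genes. Of the 22, labelled knockout 1 had the lowest value of the 3 labelled knockout libraries for 16 and the highest for 5, while labelled knockout 2 had the highest for 13. The 5 were Birc5, Ube2c, Ccnb2, Cdc20 and Cenpa, all called higher, and Birc5 had 499, 476 and 419 normalised counts in labelled knockout 1 to 3, against 229, 229 and 238 in wild type 1 to 3. Among the 16 was Mki67, with 1070, 2110 and 1578, against 1387, 1395 and 1358. Over the 28 cell cycle regulators labelled knockout 1 was the lowest of its group for 14 and the highest for 9. Ccna2, the cyclin of S phase and G2, had 370, 758 and 642, against 352, 340 and 379, and Cdk4, the kinase of the D cyclins, had 2491, 1512 and 1395, against 1616, 1699 and 2005. Labelled knockout 1 is also the labelled knockout library with the low proximal minus ileal score, and wild type 3 had a low score as well (0.904). The 5 mitosis genes highest in labelled knockout 1 had the shortest transcripts of the 22, from 947 bases for Birc5 to 1793 for Cdc20. Mki67 and Cenpf, both lowest of their group in labelled knockout 1, had transcripts of 10061 and 11130 bases. The part of the segment score or of transcript length in these ranks was not tested. The genes named were chosen after their values were seen.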
